A study of Homo sapiens with 6 samples.

Results

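The genes described here are 6 claudins (CLDN1, CLDN3, CLDN4, CLDN7, CLDN8 and CLDN12) and 4 of their partners in the tight junction (OCLN, MARVELD2, F11R and TJP1). The 10 genes were chosen by symbol, and all of them were found among the 61279 genes of the series. Expression was measured by RNA-seq in libraries labelled as T47D, a breast cancer line that carries hormone receptors, with the genotype given as wild type (WT). The paper describes T47D as PIK3CA-mutant, so WT does not mean a line without mutations. One group of 3 libraries carried the label DMSO, the vehicle (called the DMSO libraries after this label), and the other group of 3, the MI-503 libraries, carried the label of 4 μmol/L MI-503, an inhibitor of the contact between menin and MLL1, and all cells had been treated for 24 hours. All 10 genes had enough reads to be tested, and 8 of them differed between the labels, beside 62.9% of the 16442 genes tested. CLDN1, CLDN3, CLDN4 and F11R were higher with the MI-503 label, and CLDN7, CLDN12, TJP1 and MARVELD2 were lower.

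Tight junctions seal the space between neighboring epithelial cells. Claudins are tetraspan membrane proteins that polymerize into the strands of the junction and set which ions and molecules pass, and most of them bind through their C-terminal tail to the scaffold proteins of the ZO family. Occludin and tricellulin are tetraspan proteins of the same strands, and JAM-A is an immunoglobulin-like adhesion protein beside them. Epithelia differ in which claudins they express, so the mixture of claudins is a trait of the tissue as well as of the state of the cells.

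Markers of cell type separated the 2 groups. The T47D label did not match the DMSO libraries, where the luminal genes ESR1, PGR and GATA3 were each at 0.581 CPM or less (read counts scaled to library size with TMM factors). Of 10 luminal breast markers, all 10 were higher with the MI-503 label, and their summed level was 175.5 to 299.9 CPM in the DMSO libraries and 9272 to 12220 CPM in the MI-503 libraries. Of 10 prostate markers, all 10 were lower, with a summed level of 6635 to 8032 CPM in the DMSO libraries and 124 to 135 CPM in the MI-503 libraries, where the prostate marker KLK3 had no reads. Of 8 endothelial and mesenchymal markers, 1 was higher and 1 lower, 1 not past the test and 5 had too few reads to test. The endothelial gene VWF was at 14.6 to 31.3 CPM in the DMSO libraries and at 0.0488 to 0.119 CPM in the MI-503 libraries, whereas the collagen gene COL1A1 went from 26.9 to 52.2 CPM up to 77.0 to 119 CPM. VIM, which encodes the mesenchymal filament vimentin, was at 0.238 to 0.871 CPM in all 6 libraries and did not pass the test. The part that the identity of the cells plays in each difference between the labels was not tested, and in these data MI-503 and the group of libraries cannot be told apart. KMT2A, which encodes MLL1, was at 60.4 to 126 CPM in the DMSO libraries and at 81.6 to 143 CPM in the MI-503 libraries (log2 fold change [log2FC] of the MI-503 over the DMSO label 0.24, edgeR adjusted p = 0.511), and MEN1, which encodes menin, was higher (log2FC 1.27, edgeR adjusted p = 0.000265). Total reads per library lay between 17404736 and 22168525.

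CLDN1 showed the largest difference of the 10 genes. It encodes a sealing claudin that the barrier of the skin depends on. DMSO replicates 1, 2 and 3 held CLDN1 at 1.18, 1.99 and 1.28 CPM, against 1206, 1449 and 1401 CPM in MI-503 replicates 1, 2 and 3. The groups lay far apart, and the libraries labelled DMSO held 26, 41 and 28 reads of the gene against 23593 to 27703 reads in those labelled MI-503. The mean level was 1.48 ± 0.441 CPM in the DMSO libraries and 1352 ± 129 CPM in the MI-503 libraries (SD, n = 3 each), a log2FC of 9.84 (SE 0.28, edgeR quasi-likelihood test, Benjamini-Hochberg adjusted p = 1.43e-08 over all genes). In bulk RNA, more cells that express a gene and more RNA per cell cannot be told apart. The gene lies on chromosome 3 of GRCh38 from 190305707 to 190322446 on the minus strand.

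CLDN3 and CLDN4 were also higher with the MI-503 label. Both encode sealing claudins that serve as receptors for the enterotoxin of Clostridium perfringens, and the genes are neighbors on chromosome 7, with 60726 bases between their start sites (CLDN3 from 73768997 to 73770270 and CLDN4 from 73799542 to 73832690). CLDN3 was at 111, 99.3 and 72.6 CPM in the DMSO libraries, against 408.5, 376 and 394 CPM in the MI-503 libraries. Every library labelled MI-503 was above every library labelled DMSO, and the log2 fold change was 2.06 (SE 0.18, edgeR adjusted p = 8.23e-06). CLDN4 was at 289, 314 and 242 CPM in the DMSO libraries and at 569.6, 506 and 591 CPM in the MI-503 libraries. Its groups did not overlap either, with a log2FC of 0.98 (SE 0.16, edgeR adjusted p = 0.000431).

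CLDN7 went the other way. Its protein is found along the lateral membrane as well as at the tight junction and binds EPCAM. The DMSO libraries held CLDN7 at 395, 457.5 and 318 CPM, against 165.5, 122 and 129.6 CPM in the MI-503 libraries. No library labelled MI-503 reached the lowest library labelled DMSO, and the log2 fold change was −1.49 (SE 0.19, edgeR adjusted p = 9.06e-05). The gene lies on chromosome 17 from 7259903 to 7263983.

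CLDN12 and CLDN8 showed smaller differences. CLDN12, an unusual claudin without the C-terminal motif by which others bind ZO proteins, was at 80.8, 83.2 and 76.3 CPM in the DMSO libraries and at 71.4, 55.8 and 46.9 CPM in the MI-503 libraries. The groups did not overlap and the gene was called lower (log2FC −0.46, SE 0.18, edgeR adjusted p = 0.0429), but the call was lost when any 1 of DMSO replicate 1, DMSO replicate 2, MI-503 replicate 2 or MI-503 replicate 3 was left out (edgeR adjusted p = 0.0675, 0.116, 0.137 and 0.181). CLDN8, a claudin of the distal nephron and colon, had 72 to 98 reads in the libraries labelled DMSO and 47 to 52 in those labelled MI-503. That was 4.12, 4.74 and 3.28 CPM against 2.34, 2.72 and 2.79 CPM, which did not pass the test although the groups did not overlap (log2FC −0.63, SE 0.32, edgeR adjusted p = 0.108). CLDN12 lies on chromosome 7 from 90383721 to 90513402 and CLDN8 on chromosome 21 from 30214006 to 30216097.

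**Figure D1:**
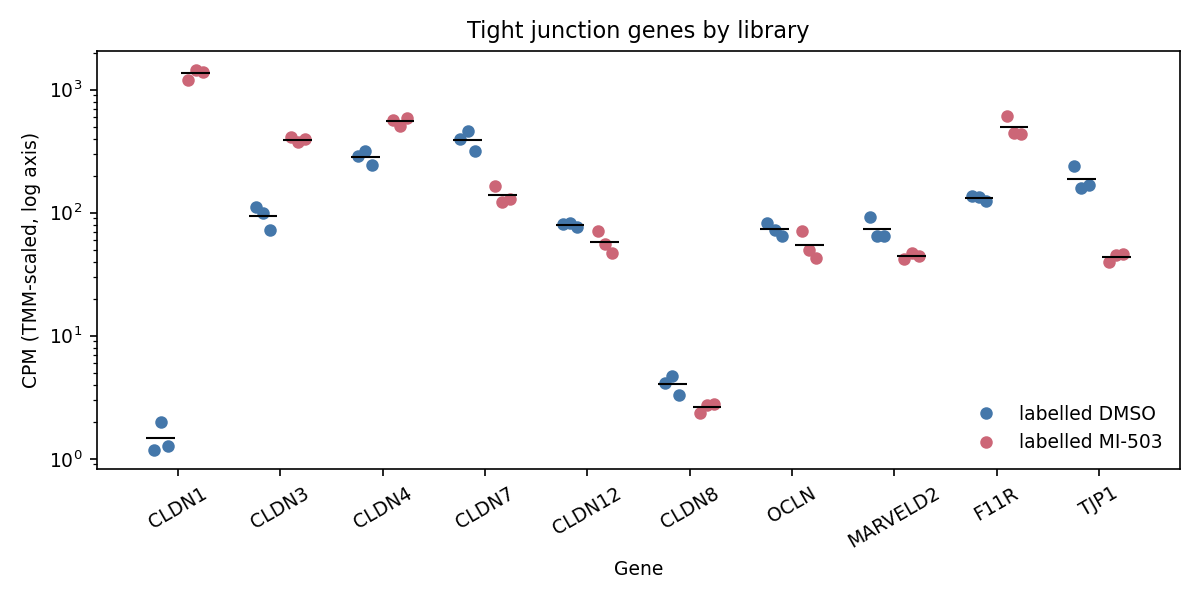
Level of each of the 10 tight junction genes in CPM on a log axis, in the 3 libraries labelled DMSO (blue) and the 3 labelled MI-503 (red); dots are single libraries and bars their means. CLDN1 lies at 1.18 to 1.99 CPM in the DMSO libraries and at 1206 to 1449 CPM in the MI-503 libraries, while the OCLN groups overlap.

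Among the partners, F11R, which encodes the adhesion protein JAM-A, was higher with the MI-503 label. It was at 137, 134 and 124 CPM in the DMSO libraries, against 614, 442 and 437 CPM in the MI-503 libraries. MI-503 replicate 1 was the highest, and the groups did not overlap (log2FC 1.92, SE 0.18, edgeR adjusted p = 1.06e-05). The exons of F11R on chromosome 1 from 160995211 to 161021343 are shared with an annotated read-through gene, ENSG00000270149, so salmon could split reads between them. That gene was at 9.78 to 13.8 CPM in the DMSO libraries and at 38.6 to 72.6 CPM in the MI-503 libraries, and with the reads of both genes summed the log2 fold change was 1.95 (SE 0.16, edgeR adjusted p = 5.39e-06).

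TJP1, which encodes the scaffold ZO-1, was the gene with the largest fall. DMSO replicates 1, 2 and 3 held it at 241, 159 and 167 CPM, and the level was 39.5, 45.0 and 46.6 CPM in MI-503 replicates 1, 2 and 3. DMSO replicate 1 stood above the other 2, and all 3 were above the libraries labelled MI-503. The log2 fold change was −2.11 (SE 0.19, edgeR adjusted p = 1.01e-05), and it was −1.90 without DMSO replicate 1. TJP1 lies on chromosome 15 from 29699367 to 29968915.

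The genes of the MARVEL-domain proteins OCLN and MARVELD2 lie on chromosome 5, 47962 bases apart. MARVELD2 encodes tricellulin, which sits where 3 cells meet. MARVELD2 was at 93.0, 64.7 and 64.1 CPM in the DMSO libraries and at 42.4, 46.6 and 44.3 CPM in the MI-503 libraries, and the groups did not overlap (log2FC −0.73, SE 0.18, edgeR adjusted p = 0.00547). OCLN, which encodes occludin, was at 82.5, 72.7 and 64.5 CPM in the DMSO libraries and at 71.5, 49.95 and 42.7 CPM in the MI-503 libraries. MI-503 replicate 1 lay within the range of the DMSO libraries, and the difference did not pass the test (log2FC −0.42, SE 0.21, edgeR adjusted p = 0.103). OCLN passed without MI-503 replicate 1 (log2FC −0.61, edgeR adjusted p = 0.0161). An annotated pseudogene of OCLN, OCLNP1, held 3 to 19 reads per library. MARVELD2 spans 69415065 to 69444330 and OCLN 69492292 to 69558104.

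Of the 10 genes, 4 were higher and 4 were lower, beside 31.7% and 31.2% of all genes tested. The CPM of 9 of the 10 genes did not overlap between the groups, beside 68.7% of all genes tested. In 4 of them the MI-503 libraries were above, and in 5 below, beside 34.7% and 34.0%. CLDN1, CLDN3 and TJP1 were past the fold threshold of the study, a log2 fold change beyond 2 in size, beside 12.6% of genes higher and 11.7% lower by that rule. CLDN3 fell short of it without DMSO replicate 3 (log2FC 1.90), with upper-quartile scaling (1.96) and with limma (1.96), and TJP1 without DMSO replicate 1 (−1.90) or MI-503 replicate 1 (−1.99). F11R passed it without MI-503 replicate 2 or MI-503 replicate 3 (2.02 each). The median log2 fold change of the 10 genes was −0.44, and that of all genes tested was −0.004. These shares are near those of the whole transcriptome, so the count of changed genes does not set the tight junction apart.

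**Figure D2:**
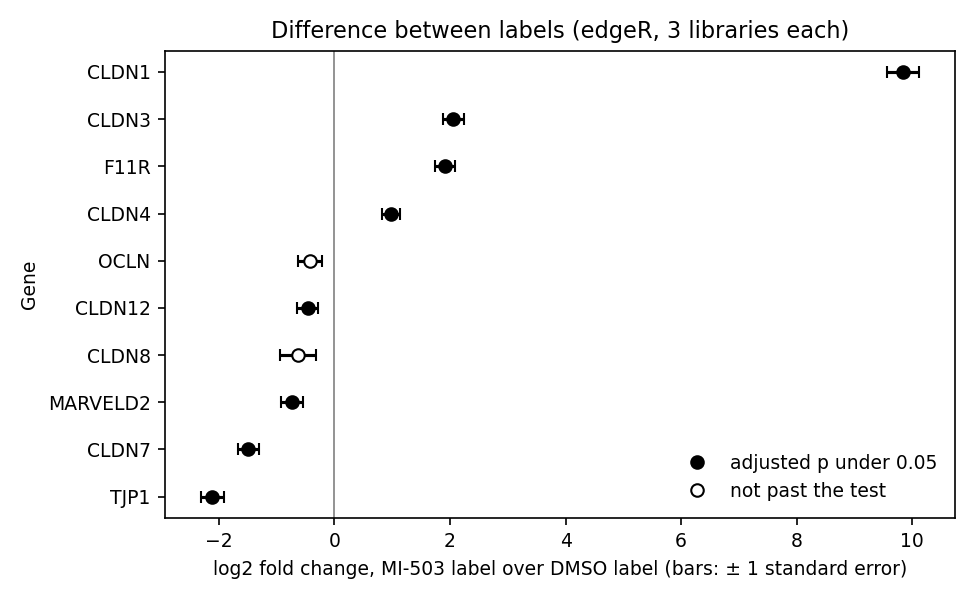
Log2 fold change of the 10 genes, MI-503 label over DMSO label, from edgeR with 3 libraries per label; bars are 1 standard error to each side, and open circles did not pass the test. CLDN1 stands at 9.84, the other 3 higher genes lie between 0.98 and 2.06, and TJP1 is lowest at −2.11.

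Levels of different genes can be compared only per length, for which TPM were summed over the transcripts of each gene. With the DMSO label CLDN7 was the most abundant of the 10 genes (495 ± 93.0 TPM), followed by CLDN4 (218 ± 31.9 TPM) and CLDN3 (111 ± 28.0 TPM; SD, n = 3 each), and no neighbors in this order overlapped. TJP1, CLDN12, F11R and MARVELD2 followed at 52.5, 41.0, 40.1 and 31.8 TPM, and each overlapped the next in this order. OCLN stood at 23.3 TPM, CLDN8 at 3.24 TPM and CLDN1 last at 0.641 TPM.

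With the MI-503 label the order was different. CLDN1 was the most abundant (570.2 ± 56.7 TPM), above CLDN3 (422.5 ± 12.3 TPM) and CLDN4 (411.5 ± 26.9 TPM; SD, n = 3 each), whose ranges overlapped. CLDN7 came next at 164 ± 24.75 TPM (SD, n = 3), overlapping F11R at 145 TPM. CLDN12 and MARVELD2 stood at 29.0 and 20.2 TPM, and MARVELD2 overlapped OCLN at 18.1 TPM. TJP1 at 11.3 TPM and CLDN8 at 1.99 TPM were the least abundant, each apart from its neighbors. With protein-coding transcripts alone, OCLN was at 11.3 TPM, close to TJP1 at 10.9 TPM.

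The claudin mixture was therefore described as shares of the summed TPM of 24 claudin genes. Their sum was 716 to 983 TPM with the DMSO label and 1613 to 1638 TPM with the MI-503 label. CLDN7 made up 55.5%, 57.9% and 54.1% of it in DMSO replicates 1, 2 and 3 and 11.8%, 9.90% and 8.63% in MI-503 replicates 1, 2 and 3. CLDN1 made up 0.0548% to 0.0889% with the DMSO label and 31.3%, 37.6% and 36.4% with the MI-503 label. CLDN7 thus led the mixture in every library labelled DMSO and CLDN1 in every library labelled MI-503. CLDN3 went from 12.4% ± 1.41 to 26.0% ± 0.930 (SD, n = 3 each). The share of CLDN4 was 24.4% to 25.4% with the DMSO label and 23.6% to 26.6% with the MI-503 label, so its share overlapped although its level was higher. CLDN12 went from 4.75% to 1.79% on average, and the 18 claudins that are not among the 10 genes made up 1.22% to 2.78% and 1.43% to 1.59%.

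Another scaffold gene of the plaque, TJP3, which encodes ZO-3, was set beside TJP1 after its values were seen. TJP3 was at 35.6, 42.2 and 40.4 CPM in the DMSO libraries, against 195.5, 163 and 146.5 CPM in the MI-503 libraries. It was thus higher where TJP1 was lower (log2FC 2.10, SE 0.17, edgeR adjusted p = 3.84e-06).

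**Figure D3:**
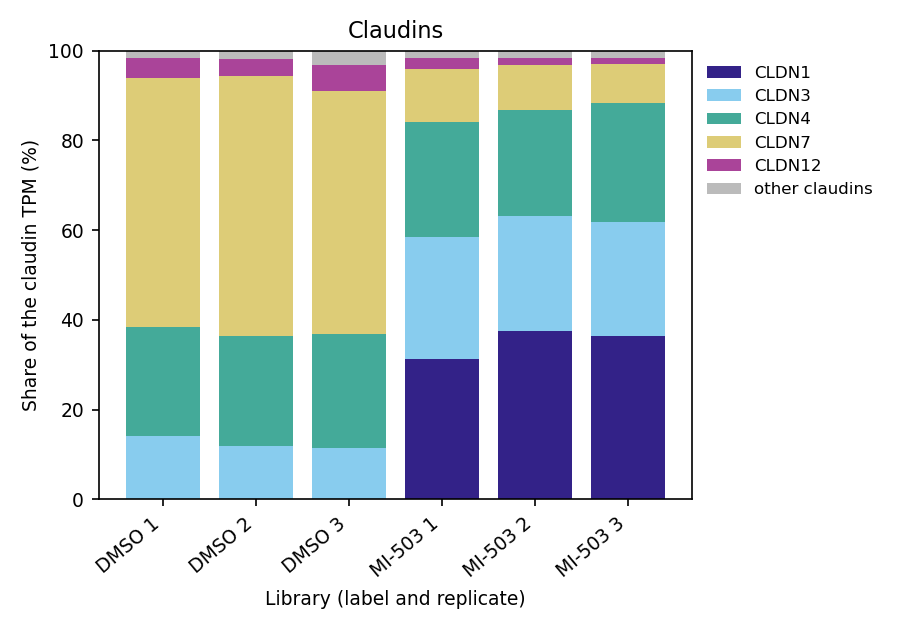
Share of each claudin gene in the TPM of 24 claudin genes, in percent, as stacked bars for each of the 6 libraries by label and replicate. CLDN7 takes 54.1% to 57.9% with the DMSO label and 8.63% to 11.8% with the MI-503 label, where CLDN1 takes 31.3% to 37.6%.

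Transcripts of some of the genes were also used in different proportions. The shares below rest on how salmon divided reads between transcripts that overlap, whose error the files do not give, and they were looked at after the gene values were known. CLDN1 and F11R, with 2 and 6 transcripts, were each read at 98.8% or more from 1 transcript in every library. CLDN3 and CLDN8 have only 1 transcript each, so their shares could not vary. For MARVELD2, 5 transcripts contain and 2 skip an exon of 36 bases within the coding sequence, which adds 12 residues to tricellulin and lies on the plus strand at chr5:69424601-69424636. Its sequence in the reference genome is given because the share of this exon differed between the labels.

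MARVELD2 36-base exon: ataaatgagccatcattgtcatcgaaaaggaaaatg

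Shares were taken over the reads of transcripts that span the position of the exon. Transcripts without this exon took 16.3%, 20.5% and 8.11% of these MARVELD2 reads in DMSO replicates 1, 2 and 3. They took 72.1%, 52.1% and 42.7% in MI-503 replicates 1, 2 and 3. The groups did not overlap, although the spread with the MI-503 label was wide, and the gene had 746 to 2056 reads per library. No test was made of these shares, and an exact permutation test of 3 against 3 libraries cannot give a two-sided p below 0.1. TJP1 has an exon of 240 bases, encoding the 80 residues that distinguish the 2 main forms of ZO-1 (α+ and α−), on chromosome 15 from 29719777 to 29720016. Among reads of TJP1 transcripts that span it, those without it took 24.5%, 31.4% and 22.3% with the DMSO label. With the MI-503 label they took 46.1%, 47.3% and 26.9%. MI-503 replicate 3 lay within the range of the DMSO libraries.

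CLDN7 has 2 start sites in RefSeq, 735 bases apart, and transcripts that begin within 20 bases of each were counted. Transcripts from the downstream site at 7262478 took 62.2%, 68.8% and 60.7% of CLDN7 reads with the DMSO label and 81.0%, 80.1% and 79.9% with the MI-503 label. Those from the upstream site at 7263213 took 26.2%, 21.6% and 26.0% and then 8.93%, 10.4% and 13.9%. The groups did not overlap at either site. OCLN reads were mostly assigned to 1 transcript, ENST00000396442, which took 81.9% to 89.8% with the DMSO label and 58.5% to 79.95% with the MI-503 label. In CLDN4 the main transcript took 93.4% to 96.2% and 98.4% to 98.7%.

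**Figure D4:**
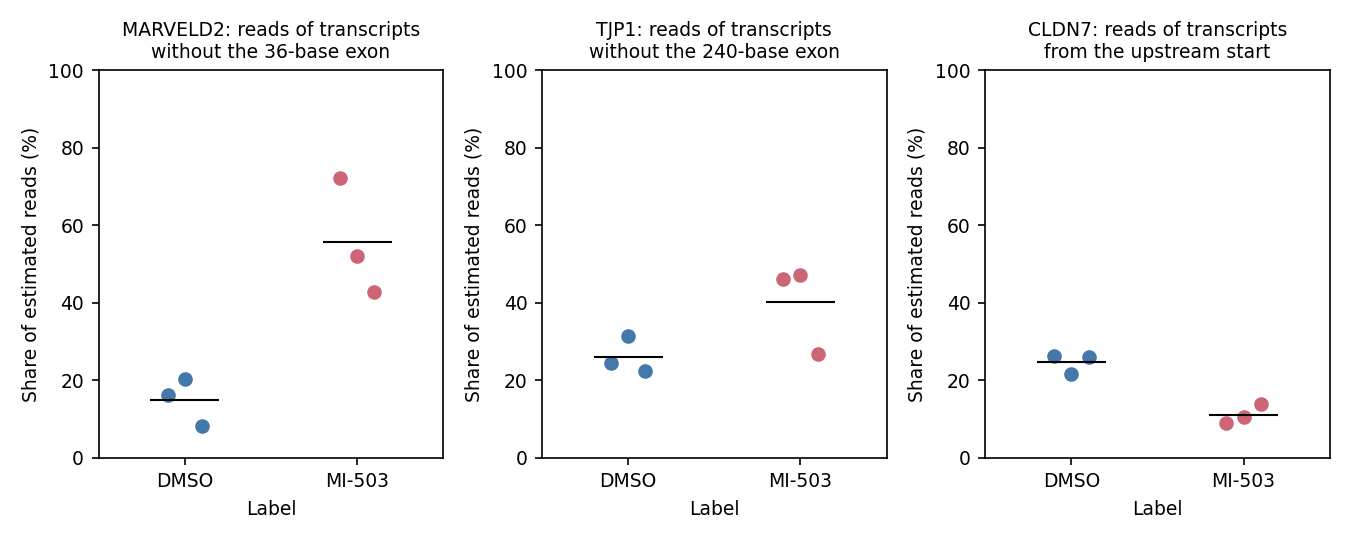
Share of estimated reads, in percent, of MARVELD2 transcripts without the 36-base exon, TJP1 transcripts without the 240-base exon and CLDN7 transcripts from the upstream start. The exon shares are over reads of transcripts that span the exon, and the CLDN7 share is over all reads of the gene. Dots are the 3 libraries of a label and bars their means. MARVELD2 goes from 8.11% to 20.5% with the DMSO label to 42.7% to 72.1% with the MI-503 label, while the TJP1 groups overlap.

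Promoters in RefSeq (GRCh38.p14) were found for 8 of the 10 genes, 13 in all. CLDN8 and F11R had none in the table. The 250 bases before the start are printed for the claudins with the largest rises among the 6 described here, CLDN1 and CLDN3, and for the upstream start of CLDN7, whose share was lower with the MI-503 label. All 3 lie on the minus strand, at chr3:190322447-190322696, chr7:73770271-73770520 and chr17:7263214-7263463, and capitals mark GGGCGG or its reverse complement CCGCCC, the GC box that SP1 binds.

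CLDN1 promoter: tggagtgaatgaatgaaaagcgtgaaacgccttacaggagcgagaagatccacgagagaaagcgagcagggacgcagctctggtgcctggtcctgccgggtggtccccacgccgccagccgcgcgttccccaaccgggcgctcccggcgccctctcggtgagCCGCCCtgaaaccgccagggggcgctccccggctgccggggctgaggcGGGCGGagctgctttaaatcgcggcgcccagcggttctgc
CLDN3 promoter: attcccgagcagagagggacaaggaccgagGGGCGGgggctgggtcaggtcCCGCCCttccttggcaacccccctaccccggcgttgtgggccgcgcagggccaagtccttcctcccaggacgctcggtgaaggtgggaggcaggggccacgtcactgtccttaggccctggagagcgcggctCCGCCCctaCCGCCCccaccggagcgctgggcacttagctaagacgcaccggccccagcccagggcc
CLDN7 upstream promoter: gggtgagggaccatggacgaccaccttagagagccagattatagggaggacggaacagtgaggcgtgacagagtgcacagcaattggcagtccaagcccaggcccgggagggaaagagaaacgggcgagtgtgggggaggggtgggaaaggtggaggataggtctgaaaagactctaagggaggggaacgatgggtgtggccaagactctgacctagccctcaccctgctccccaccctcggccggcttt

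The CLDN1 window held 2 GC boxes and the CLDN3 window held 4, while the upstream CLDN7 window held none. The window of the downstream CLDN7 start, which had most of the reads, held 1, as did that of the higher gene CLDN4. Among the other lower genes, the windows of MARVELD2 and of the TJP1 start at 29822468 held 3 each, and that of CLDN12 held none. A link between GC boxes and direction was not tested. Of the 13 promoters 9 held a GC box, beside 42.6% of all 35116 RefSeq promoters. At 4 of the 13 starts (1 of OCLN and 3 of TJP1) no library had reads assigned to a transcript that begins within 20 bases. These 4 hold 3 of the 9 promoters with a GC box. One of these GC-box promoters is that of the TJP1 start at 29821479, and the transcript ENST00000400011 begins inside its window. That transcript took 4.43% to 21.8% of TJP1 reads with the DMSO label and 0% to 35.7% with the MI-503 label, so this promoter cannot be called unused. Both strands were also searched for CAGGTG, the E-box that SNAI and ZEB repressors bind, which was in 4 of the 13 promoters, 2 of them at starts without reads, and in 17.5% of all. The window of the downstream CLDN7 start held 4 copies of this E-box and, like that of CLDN4, lies within annotated exons, so neither is printed. The motif AACCGGTT, bound by GRHL factors, and TATAAA were in none of the 13 and in 0.117% and 10.7% of all promoters. In the CLDN1 window 68.8% of bases were G or C and CpG was at 0.948 of the number its base composition predicts, against 58.8% and 0.185 for CLDN4. The medians of all promoters were 58.0% and 0.558. The motifs are matches of letters in these windows and do not show that a factor binds.

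Genes around the tight junction were counted in 8 lists of 96 genes, of which 77 were tested, 35 were higher and 20 were lower. All list counts stand beside 31.7% of genes higher and 31.2% lower over the whole transcriptome. The median log2FC of the genes tested is given for each list, beside −0.004 for all genes. Of 18 other claudins, 13 had too few reads to test, 1 was higher, 2 lower and 2 not past the test (median −0.26). CLDN16, a claudin of magnesium uptake in the kidney, had 0 reads in the DMSO libraries and 15.9, 19.3 and 16.6 CPM in the MI-503 libraries, at least 372-fold higher. The bound sets the DMSO label at 3 reads over the group (0.0464 CPM) and covers counting error only. CLDN23 was lower (log2FC −0.86), as was CLDN5, the claudin of endothelium, at 1.82 CPM or less in every library. CLDN5 lost its call with DESeq2 and without any 1 of DMSO replicate 2, DMSO replicate 3, MI-503 replicate 1 or MI-503 replicate 2 (adjusted p from 0.0268 to 0.137 over its alternatives, with edgeR, DESeq2 or limma). CLDN9 was at 0.182 to 1.41 CPM and did not pass the test (log2FC 1.18, edgeR adjusted p = 0.113).

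Of 10 other membrane proteins of the tight junction, 3 were higher, 5 lower, 1 not past the test and 1 was not tested (median −0.41). ILDR1, which recruits tricellulin to the contacts of 3 cells, had 1 read over the 3 libraries labelled DMSO and 4.83 to 6.28 CPM in the MI-503 libraries, a 363-fold ratio (exact 95% limits 64.7 and 14390). The adhesion protein genes JAM2 and JAM3, relatives of F11R, went opposite ways. JAM2 was at 0.0905 to 0.410 CPM and at 9.73 to 11.5 CPM, and JAM3 was at 1.32 to 1.99 CPM in the DMSO libraries and had 0 reads in the MI-503 libraries, which is at least 30.5-fold lower. BVES, another adhesion gene, also had no reads with the MI-503 label and was at least 33.5-fold lower, taking 3 reads in the whole group (0.0531 CPM) as its limit.

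Of 23 plaque and polarity genes, 11 were higher, 4 lower and 8 not past the test (median 0.26). AMOTL2, of the angiomotin family, went from 0.0912 to 0.387 CPM in the DMSO libraries to 141 to 155 CPM in the MI-503 libraries (log2FC 9.17, SE 0.31, edgeR adjusted p = 2.42e-08). The polarity genes PARD6B and PARD3 had log2FC values of 3.93 and 3.25. YBX3, whose product binds ZO-1, was at 248 to 305 CPM in the DMSO libraries and at 46.3 to 57.9 CPM in the MI-503 libraries, a log2FC of −2.44.

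Of 8 genes whose products bind or process claudins, 6 were higher, 1 did not pass the test and 1 was not tested (median 1.47). EPCAM, a surface protein that binds CLDN7 and was named after its values were seen, had a log2FC of 0.62 (edgeR adjusted p = 0.0042). The membrane proteases ST14 and PRSS8 and the protease inhibitor gene SPINT1 had log2FC values of 1.79, 1.47 and 2.50.

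Of 11 adherens junction genes, 6 were higher, 2 lower, 2 not past the test and 1 was not tested (median 0.45), and of 8 desmosome genes 3 were higher, 3 lower and 2 not past the test (median −0.18). NECTIN2, NECTIN4 and NECTIN1, adhesion receptors, had log2FC values of 1.99, 3.99 and 0.73, and JUP, the linker plakoglobin, 1.65. The plakin genes PPL and EVPL had log2FC values of 2.56 and 1.85, whereas those of the desmosomal cadherins DSC2 and DSG2 were −1.51 and −0.87. CDH1, which encodes E-cadherin and was looked at after its values were seen, was lower by a log2FC of −0.72. Genes of all 3 kinds of junction thus moved in both directions.

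Of 12 epithelial transcription and splicing factors, 5 were higher, 2 lower and 5 not past the test (median 0.37). TFAP2A was at 6.20 to 8.07 CPM in the DMSO libraries and at 188 to 284 CPM in the MI-503 libraries (log2FC 5.13, SE 0.22, edgeR adjusted p = 8.22e-08), and TFAP2C, GRHL1 and ESRP1 had log2FC values of 1.72, 1.77 and 1.93. Of 6 repressors of epithelial junction genes, 2 were lower, 1 was not past the test and 3 were not tested (median −2.41). SNAI2 was at 1.31 to 4.01 CPM in the DMSO libraries and had 1 read in the MI-503 libraries, 142-fold less (exact 95% limits 25.2 and 5653), and TWIST1 was at 1.05 to 2.18 and 0.0594 to 0.418 CPM. SNAI1 was at 3.86 to 5.18 CPM in all 6 libraries and did not pass the test (log2FC −0.24, edgeR adjusted p = 0.473). ZEB1 was at most 0.273 CPM in any library, and ZEB2 and TWIST2 had no reads.

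**Figure D5:**
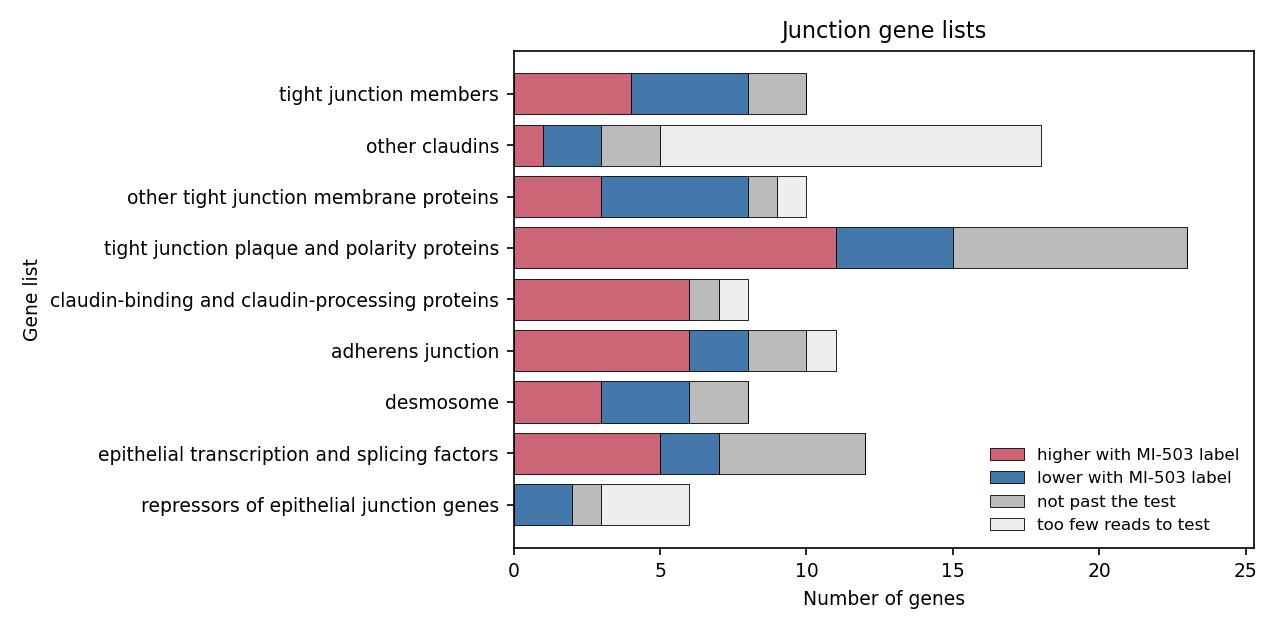
Number of genes in the 10 tight junction genes and in 8 further lists that were higher, lower, not past the test (edgeR, adjusted p under 0.05) or too low to test, MI-503 label against DMSO label. Of the 10 genes 4 are higher and 4 lower, and of 23 plaque and polarity genes 11 are higher and 4 lower.

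By Euclidean distance between log2(CPM + 1) over the 6 libraries, the protein-coding genes most like CLDN1 were TMSB4X, IGFBP5 and CRABP2 (distances 0.888, 1.01 and 1.2). TMSB4X, which encodes an actin-binding peptide, was at 0.935 CPM on average with the DMSO label and at 1154 CPM in the MI-503 libraries. Those most like TJP1 were SELENOI, ARHGEF26 and DHRS7 (distances 0.526, 0.561 and 0.574), which had log2FC values of −1.82, −2.23 and −2.22. With 2 groups of 3 libraries such a likeness reflects little more than the mean of each group.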

How the data were processed

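RNA of cells labelled T47D was purified on RNeasy columns and sequenced at Novogene. The values are estimated counts of reads per transcript (232117 transcripts), which the authors made with salmon (Illumina DRAGEN) and deposited without normalization, and the TPM that salmon derived from them by effective length, deposited beside them. Builds named in the submitters' processing notes are hg38 and GRCh38.p13. Not given in the sources used here: salmon's version and annotation release.

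GENCODE 44 gave the gene of 98.8% of transcripts, which held 99.16% or more of each library's reads. Estimated counts were summed to genes and rounded. Groups were compared with edgeR 4.0.16 (quasi-likelihood test, TMM scaling, filterByExpr, 16442 genes, Benjamini-Hochberg adjustment over all of them), and a gene was called at an adjusted p under 0.05. The paper used DESeq2, which served as an alternative (1.42.0), as did limma 3.58.1 on log2(TPM + 1). Standard errors are those of the fit, and SDs are over 3 libraries. The labels call the replicates biological, without naming separate cultures, and p-values judge a difference against the spread between these libraries, with information shared over genes. The tests were also run on simulated counts in which few genes were changed and all genes had the same dispersion. That setting is simpler than these data, where 62.9% of the genes tested differed. Reads carry no molecular identifiers, so intervals and floors cover counting error only.

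The 10 genes and the other lists were chosen with earlier results of these data known. Named were all 10 genes, the 4 lowest adjusted p-values in each other list (a marker list adds defining markers at 0), KMT2A, MEN1, and the 3 genes nearest in pattern to the largest rise and the largest fall. Promoter sequences are from RefSeq, GRCh38.p14, and their letters were the same in hg38, from which the exon was read. Some genes of these lists are counted but not reported here by name.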

Additional observations from a re-analysis of the deposited data

How the results depend on the processing

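Each gene kept its direction in every alternative fit. The 13 alternatives were scaling by RLE or by the upper quartile, testing without a filter or with at least 1 CPM in 3 libraries, DESeq2, limma on log2(TPM + 1), the replicate block and each library left out. The count of tight junction genes higher stayed at 4 and the count lower lay between 3 and 5. Among 131 member fold changes, 123 stayed on their side of the threshold, 5 were lost and 3 were gained. CLDN12 was lost with no filter (log2 fold change −0.43, adjusted p = 0.07 from edgeR) and without 1 of 4 libraries, with adjusted p from 0.0133 to 0.181 over its alternatives. OCLN was gained with upper-quartile scaling (adjusted p = 0.0397), with the replicate block (log2 fold change −0.45, adjusted p = 0.036, both from edgeR) and without MI-503 replicate 1, in a range of 0.0161 to 0.343. Same-numbered libraries of the 2 groups deviated from their group means with correlations of −0.059, 0.132 and −0.076 over the genes tested. These values do not settle whether libraries with the same number were paired. The block left 5071 genes higher and 4913 lower, against 5208 and 5130 without it. Upper-quartile scaling moved the median of all genes to −0.101, and the cause of these changes was not tested. With limma on log2(TPM + 1), 1098 genes were higher and 873 lower past the fold threshold, against 2065 and 1930. DESeq2 gave 2490 and 2396, and no filter 2869 and 2827. With TPM of protein-coding transcripts alone, the mean of CLDN12 with the DMSO label was 35.0 TPM, and those of OCLN were 16.7 and 11.3 TPM with the DMSO and MI-503 labels. The sum of F11R with its read-through gene was chosen after seeing the data. Of 208 counts of single lists, 14 moved by over 1.5 times, all of them counts of 2 genes or fewer. CLDN8 had at most 98 reads in a library, so its depth limits what can be seen.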
